A study of Mus musculus with 2 samples.

Results

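Cytosolic ribosomal protein genes encode the protein parts of the ribosome, the particle that translates mRNA. Members were the genes whose symbol begins with Rpl or Rps and a digit, together with Rplp0, Rplp1, Rplp2 and Rpsa, without pseudogene symbols that contain "-ps" and without the Rps6k kinases. This rule took 91 genes of 22687 with a symbol in the P6 library and 91 of 21736 in the P15 library. Of them, 46 belong to the large subunit, 31 to the small subunit, and 14 are paralogs or other genes that the name pattern catches. The rule left out pseudogenes by symbol only. Among these 14, Rpl6l, Rpl32l, Rps3a2 and Rps3a3 are annotated as processed pseudogenes, and Rps4l and Rpl37rt as transcribed processed pseudogenes. The study compared endothelial cells of the developing mouse retina at postnatal day 6 (P6), when the vessel plexus still grows, and at postnatal day 15 (P15). Both groups were wild-type C57BL/6 mice, and cells were sorted as CD31+CD45- and sequenced as 10x droplet libraries in which each unique molecular identifier (UMI) stands for 1 captured mRNA. Each age was 1 library, the number of animals behind each is not given in the sources used here, and a difference between ages cannot be told apart from a difference between libraries. Intervals below are exact 95% intervals that cover counting error only, and no p-value is given.

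The P6 library held 13958124 UMIs in 1984 barcodes and the P15 library 11589641 UMIs in 2141 barcodes. For values by age, 1424 cells at P6 and 1644 at P15 remained after exclusion criteria taken from the study, with median depths of 4985.5 and 4214.5 UMIs. The criteria were 200 to 3500 genes, a mitochondrial share of 5% or less, and Hbb-bt, Neurod1 and Cd63 all at 0. The study words the limits of 200 and 3500 as RNA counts, and its methods name gene numbers. Reading them as genes was therefore a choice made here. Values by cell state used the study's published cluster labels, which named 1560 P6 cells and, in the copy used here, 438 P15 cells. The endothelial list (Pecam1, Cdh5, Cldn5 and 7 others) had a UMI in 100% of passing cells at both ages and summed to 10601 CPM (UMIs of a gene or list relative to all UMIs in the cells) at P6 and 16374 at P15, with Cldn5 as its most abundant gene. The libraries shared 7 cell barcodes.

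Ribosomal protein mRNAs are among the most abundant of growing cells. Many begin with a pyrimidine tract at their 5' end, the TOP (terminal oligopyrimidine) motif, through which mTOR and Larp1 control their translation. Ribosome supply is tied to cell growth and division, and endothelial cells of a growing vascular front differ from those of settled arteries and veins in both. UMI values count molecules and were not divided by gene length. Which end of the transcript was captured is not given in the sources used here.

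Ribosomal protein mRNA made up a smaller share of the transcriptome in the P15 library than in the P6 library. Its share was 19.2% of UMIs at P6 (1465875 UMIs, 19.1 to 19.2%) and 11.0% at P15 (808391 UMIs, 10.9 to 11.0%). The ratio of P15 to P6 was 0.572 (0.571 to 0.574), or -0.81 on the log2 scale. Cell by cell, the share had a median of 18.4% at P6 (quartiles 15.5 and 21.5%) and 10.1% at P15 (quartiles 8.20 and 12.4%). The distributions barely overlapped around their centres: 64 of 1644 P15 cells (3.89%) lay above the P6 median, and 45 of 1424 P6 cells (3.16%) lay below the P15 median. A median P6 cell held 958.5 ribosomal protein UMIs and 4021.5 others, and a median P15 cell held 439 and 3792. The lower share thus went with fewer ribosomal protein UMIs per cell, while the number of other UMIs differed less.

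Depth moved with the share. Within P6 the median share was 15.3% in the shallowest 285 cells (median 2835 UMIs) and 20.7% in the deepest 285 (median 8623 UMIs). Within P15 it was 8.76% in the shallowest 329 cells (median 1974 UMIs) and 11.3% in the deepest 329 (median 7527 UMIs). The median share of the shallowest P6 group was above that of the deepest P15 group. The part of depth in the difference between the ages was not tested. In cells of 3000 to 6000 UMIs, with medians of 4456 and 4367 UMIs, the share was 18.7% at P6 and 10.6% at P15, a ratio of 0.565.

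Transcripts of other cell types also differed between the libraries. The pericyte list summed to 13.6 CPM at P6, where 8 of 9 genes had a UMI and Cspg4 had none, and to 334 at P15 (9 of 9 genes), with Rgs5 as its most abundant gene. Red blood cell genes (3 of 5 with a UMI at P6, 4 of 5 at P15, Hbb-bt at 0 by the cell exclusion) summed to 22.6 and 173, led by Hbb-bs. Photoreceptor and neuronal genes (9 and 8 of 10, Neurod1 at 0 in both) summed to 79.5 and 103. The glial list (4 and 5 of 6, Pax2 at 0 in both) summed to 369 and 1227, most of it Glul (366 and 1161), which endothelial cells can express. Rlbp1, a gene of Muller glia, had 1.31 and 63.6 CPM. Leukocyte genes (5 of 6 in both, Ptprc at 0) summed to 2.22 and 5.97. In the 1029 P6 and 425 P15 cells without any UMI of the pericyte, neural, red blood cell and leukocyte lists, a choice made after the data were seen that did not use the glial list, the share was 19.3% and 11.0% and the ratio 0.566.

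**Figure D1:**
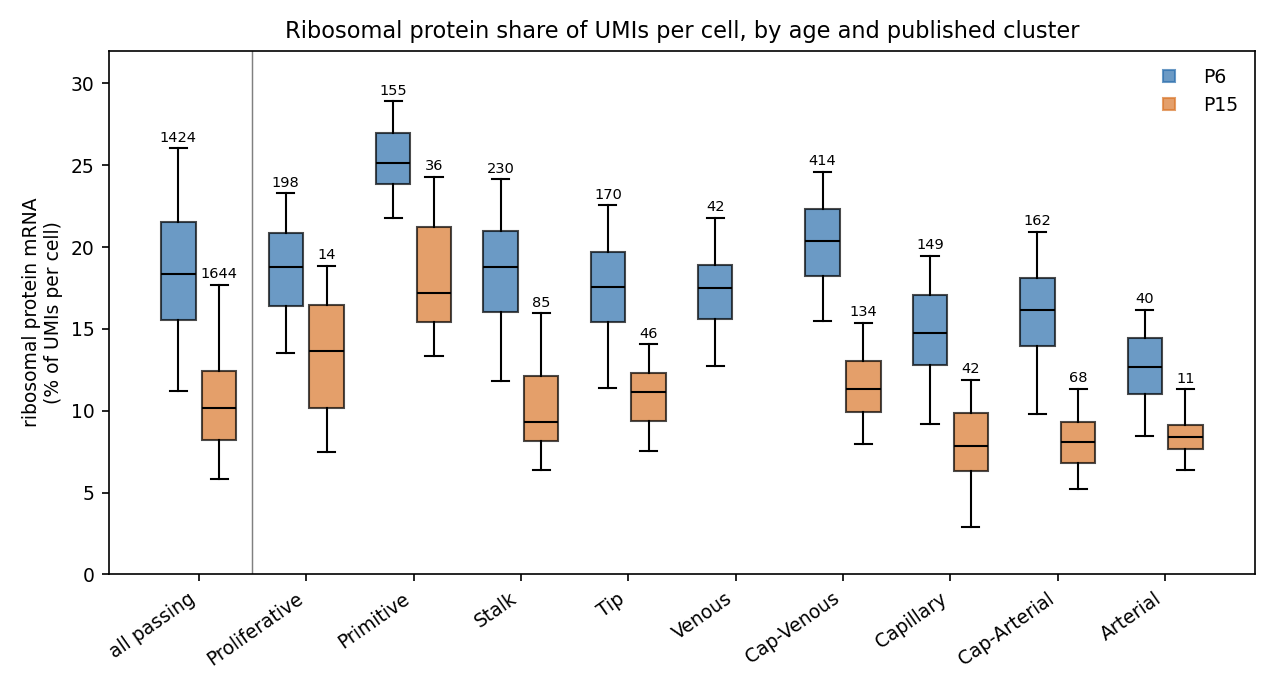
Share of each cell's UMIs that came from ribosomal protein genes (%, y axis) in all passing cells and in the study's 9 clusters (x axis), P6 in blue and P15 in orange. Boxes give median and quartiles, whiskers the 5th and 95th percentiles, and numbers the cells. P15 Venous, with 2 cells, is not drawn. Every cluster drawn for both ages was lower at P15, and Primitive cells were highest at both.

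The large subunit carries the catalytic centre and the small subunit reads the mRNA. Large subunit genes summed to 105042 CPM at P6 and 61122 at P15, a ratio of 0.582 (0.580 to 0.584). Small subunit genes summed to 84018 and 46519, a ratio of 0.554 (0.551 to 0.556). The large to small ratio of UMIs was accordingly 1.25 at P6 (1.246 to 1.254 by the binomial interval of the large share) and 1.31 at P15 (1.308 to 1.320). Across cells the share of the large subunit and that of the small subunit had a Pearson r of 0.95 in each library (n = 1424 and 1644 cells, which share a library and whose shares both rise with depth).

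The lower share at P15 was spread over nearly the whole gene family. Of the 91 members, 85 had at least 200 UMIs over both libraries, and 83 of these 85 were lower at P15 by more than 1.2-fold and none higher. Among all 7455 genes with that many UMIs, 21.2% were lower and 37.7% higher past the same fold. The median ratio of the members was 0.557, with quartiles of 0.502 and 0.641, against 1.09 for all genes (0.13 on the log2 scale). Dividing by that median left 84 members lower and 0 higher at a median of 0.510, beside 29.2% lower and 28.1% higher among all genes. Only Rps27rt and Rpl7l1 lay within the fold before scaling. The 6 members under 200 UMIs were Rpl24, Rpl32l, Rpl36al, Rpl39l, Rpl3l and Rps3a3, named here after their values were seen.

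The order of abundance among the members hardly differed between the ages. Rpl41, the smallest ribosomal protein, was highest with 7891 CPM at P6 and 4915 at P15. Rps29 followed with 6083 and 3409, and Rpl38 with 5623 and 3670. Rps27 had 4453 and 3074, and Rps14, a protein of the small subunit platform, had 4286 and 3046. These 5 genes gave 14.8% of all members' UMIs at P6 and 16.5% at P15. Over the 77 canonical members, log2 levels at the 2 ages had a Pearson r of 0.99 and a Spearman correlation of 0.95, across genes that are not independent replicates. At P6, 68 members exceeded 1000 CPM, and at P15 51 did.

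**Figure D2:**
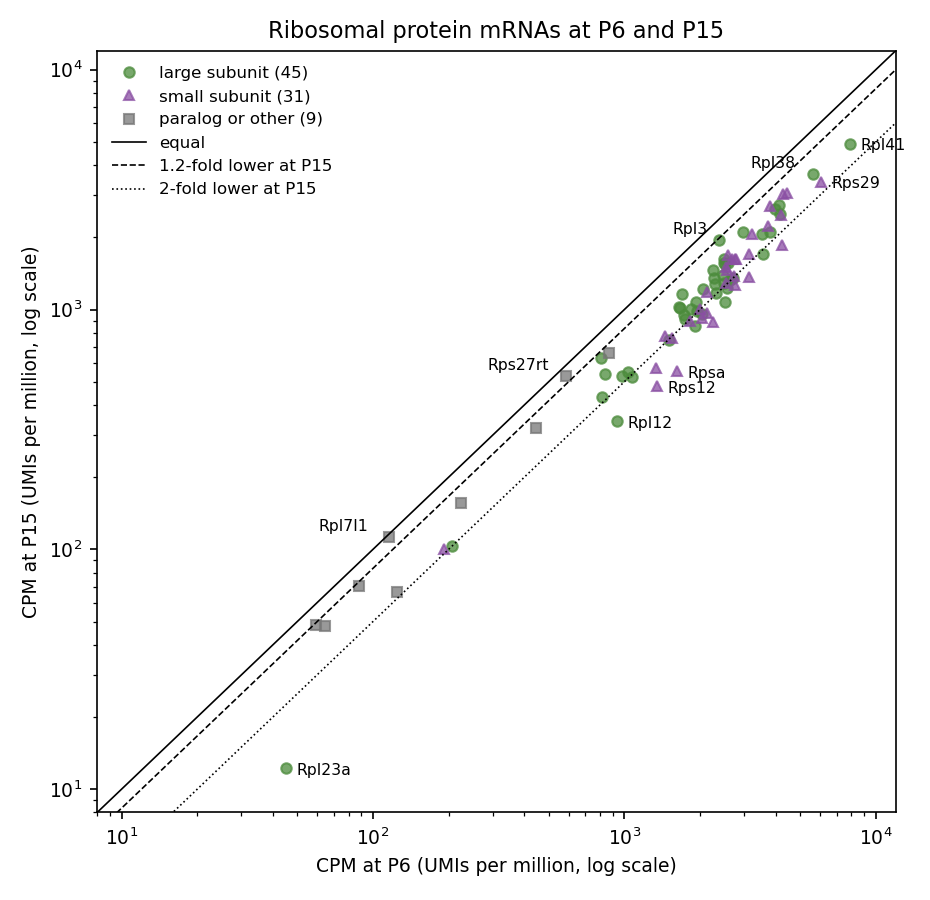
Level in CPM for each ribosomal protein gene with at least 200 UMIs at P6 (x axis) and P15 (y axis), both on log scales, by subunit. Lines mark equal levels and 1.2-fold and 2-fold lower levels at P15. Nearly all points lie below the 1.2-fold line, with Rps27rt and Rpl7l1 above it.

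At the low end of the ratios among members with at least 200 UMIs stood Rpl23a, a protein of the tunnel exit. It had 45.1 CPM at P6 and 12.2 at P15, a ratio of 0.27 (0.212 to 0.342) that rose to 0.70 once near-identical copies were counted (below). Rpsa, which is also known as the laminin receptor precursor, had 1614 and 553, a ratio of 0.34 (0.331 to 0.355). Rps12 had 1352 and 479 (ratio 0.35, 0.341 to 0.368), and Rpl12, a protein at the base of the stalk, 938 and 342 (ratio 0.36, 0.348 to 0.381). Rps26, which contacts mRNA upstream of the start codon, had 2261 and 891 (ratio 0.39, 0.383 to 0.406). Apart from Rpl23a these were abundant mRNAs, so counting error was small against the distance to the member median.

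Among members with at least 200 UMIs and before near-identical copies were counted, the highest ratios belonged mostly to paralogs and recent gene copies. Rpl7l1, a paralog of Rpl7 known from pre-ribosomes, had 116 CPM at P6 and 112 at P15 (ratio 0.97, 0.880 to 1.07), an interval that includes 1. Rps27rt, a retrotransposed copy of Rps27, had 588 and 528 (ratio 0.90, 0.859 to 0.937). Rpl6l had 59.2 and 48.6 (ratio 0.82, 0.712 to 0.944), and Rps3a2 had 88.4 and 70.5 (ratio 0.80, 0.710 to 0.896). The canonical gene of this group was Rpl3, a core protein near the catalytic centre, with 2372 and 1941 (ratio 0.82, 0.801 to 0.837).

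Among the other paralogs, Rps27l, a p53 target, had 446 and 321 CPM (ratio 0.72, 0.683 to 0.759) and Rpl22l1 had 224 and 156 (ratio 0.69, 0.643 to 0.747). Rps4l had 125 and 66.2 (ratio 0.53, 0.475 to 0.593). Rps19bp1, which encodes a binding partner of Rps19 and no ribosomal protein, had 64.2 and 47.8 (ratio 0.74, 0.647 to 0.855). Rpl37rt, a retrotransposed copy of Rpl37, had 871 and 657 (ratio 0.75, 0.727 to 0.783) and Rpl32l 7.84 and 7.60 (ratio 0.97, 0.661 to 1.42), both taken by the naming rule but not among the genes set down beforehand, and named after their values were seen. The rest of this group was close to the detection limit. Rps3a3 had 80 UMIs at P6 (ratio 0.70, 0.486 to 1.001), Rpl39l had 18 UMIs (ratio 0.35, 0.112 to 0.910) and Rpl36al 4 UMIs (ratio 0.52, 0.047 to 3.62). Rpl3l, the paralog known from striated muscle, had 1 UMI at P6 and 1.76 CPM at P15 (ratio 13.5, 2.03 to 573). Rpl10l, known from testis, was not among the genes of either count table, so it has no level here.

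The functional groups within the ribosome all moved the same way. The P stalk recruits the translation factors that hydrolyse GTP. Its 3 genes summed to 8615 CPM at P6 and 4353 at P15, a ratio of 0.505 (0.499 to 0.512). Rplp0, its anchor, had a ratio of 0.55 (0.543 to 0.565), Rplp1 of 0.51 (0.496 to 0.523) and Rplp2 of 0.43 (0.417 to 0.440). Rpl5 and Rpl11 form the 5S particle with 5S rRNA and can bind Mdm2 when ribosome assembly fails. They had 818 and 434, and 2482 and 1291 CPM, with ratios of 0.53 (0.508 to 0.554) and 0.52 (0.507 to 0.533). The 8 tunnel exit proteins ranged from 0.27 (Rpl23a, 0.70 with its copies) to 0.71 (Rpl35), and the 6 proteins along the mRNA path of the small subunit from 0.39 (Rps26) to 0.71 (Rps14). Every gene of these 4 lists was lower past the fold, beside 21.2% of all genes. Fau and Rack1, ribosomal proteins whose symbols the rule does not take, had ratios of 0.63 (0.614 to 0.643) and 0.46 (0.438 to 0.481).

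Near-identical gene copies limit single-gene values in this family. Mouse ribosomal protein genes have many processed copies, and reads that fit several places can be split or dropped, depending on the counting. For each other gene, the share of its 31-base words that also occur in a member's protein-coding transcripts was computed, and genes with at least 50% were called look-alikes of that member, a definition made after the data were seen. They were 260 genes at P6 with 267658 UMIs (3.50% of UMIs) and 258 at P15 with 186903 (2.54%). Adding them raised the family to 22.7% of UMIs at P6 and 13.5% at P15, a ratio of 0.596.

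Single genes depended on these copies far more than the sum did. Rpl24 had 6.80 CPM at P6, but 571 with its look-alikes, and its ratio was then 0.88 (0.842 to 0.919). Rpl23a went from 45.1 to 422 CPM, and its ratio from 0.27 to 0.70 (0.660 to 0.736), so its place as the lowest member did not hold. The high end changed as well: Rpl27a went from 0.78 to 0.89 (0.865 to 0.916), and with Rpl7l1, Rps27rt, Rpl24 and Rpl3 (0.84) it made up the 5 families not lower past the fold. Rpl13a (206 to 729) and Rps6 (192 to 741) were other genes whose own counts were a minor part, named like Rpl24 and Rpl27a after their values were seen. The low ratios of Rpsa (0.36), Rps12 (0.38), Rpl12 (0.38) and Rps26 (0.42) changed little. The median over the 86 families was 0.589, and 81 of 86 families were lower past the fold, beside 21.1% of all genes in the same count. Members were not merged with one another, so Rps27rt and the members annotated as pseudogenes each counted apart from the gene they resemble. Over 76 canonical genes, the ratios with and without look-alikes had a Pearson r of 0.79. The most abundant look-alikes were Gm3511, similar to Rps28, with 2612 CPM at P6, and Gm10076 and Gm10736, similar to Rpl41, with 2229 and 1954.

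Members of the family also moved together in cell states, so their promoters are shown. RefSeq promoters of 250 bases before to 50 after the start (GRCm38.p6) were matched by symbol for 57 of the 77 canonical members, with 67 starts. A run of at least 8 pyrimidines on the gene's strand within 5 bases of the start was found in 22 of these 67 (32.8%) and in 9.38% of all 32851 promoters. CCGGAAG, the core that ETS factors bind, was found on either strand in 37.3% against 8.86%, and GGGCGG, an SP1-type box, in 61.2% against 35.7%. AAGATGG, part of the YY1 motif, was found in 16.4% against 6.34%, the E-box CACGTG in 11.9% against 7.15%, and TATAAA in 8.96% against 13.6%. The mean GC content of the windows was 57.9% for members and 53.8% for all, and these shares were not adjusted for it. Matches can share end bases, as CCGGAAG and AAGATGG can in AAG, and a match is a description of letters, not a binding site. The stretches from 60 bases before to 20 after the start are given for 4 genes whose values stand out above or below: Rpl38 and Rps27, which parted in Arterial cells, and Rpl12 and Rps26, which had low ratios. Other members that stand out had shorter runs and are not printed. Rpsa and Rps12, with lower ratios than Rpl12 and Rps26, had runs of 3 and 2 bases. Rpl41, the most abundant member, had a run of 3 bases. Capitals mark the longest pyrimidine run with a base within 5 of the start, of 10, 9, 7 and 9 bases in this order. The run of Rpl12 is below the minimum of 8, and that of Rpl38 is preceded by CCGGAAG. Rpl38 is at chr11:114668520-114668599 (+), Rps27 at chr3:90213629-90213708 (-), Rpl12 at chr2:32961652-32961731 (+) and Rps26 at chr10:128626487-128626566 (-).
Rpl38: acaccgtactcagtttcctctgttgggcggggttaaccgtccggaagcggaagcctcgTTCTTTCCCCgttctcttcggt
Rps27: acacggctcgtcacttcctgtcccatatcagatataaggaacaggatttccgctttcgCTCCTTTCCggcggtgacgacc
Rpl12: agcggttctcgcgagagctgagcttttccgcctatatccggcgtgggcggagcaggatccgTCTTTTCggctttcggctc
Rps26: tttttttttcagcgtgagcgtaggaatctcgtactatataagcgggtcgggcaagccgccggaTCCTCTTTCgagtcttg

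The ribosomal protein share also differed between cell states. In the P6 library, ribosomal protein mRNA was 25.2% of UMIs in 155 Primitive cells, a cluster that the study described by high Cdc42 and Rac1. It was 20.7% in 414 Cap-Venous cells (capillary cells with venous traits), 19.0% in 198 Proliferative cells and 19.0% in 230 Stalk cells. Tip cells, which lead sprouts, had 18.0% (170 cells) and Venous cells 17.6% (42 cells). Cap-Arterial cells had 16.6% (162 cells), Capillary cells 14.9% (149 cells) and Arterial cells 12.8% (40 cells). The order thus ran from Primitive cells down to Arterial cells, with Proliferative and Stalk cells not apart within their intervals (18.97 to 19.09% and 18.96 to 19.09%). The ratio of the highest to the lowest was 1.96 (1.94 to 1.99). The study built these clusters from the same expression data, so the differences describe them and test nothing.

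The P15 clusters fell in a like order at lower levels. Primitive cells had 18.1% (36 cells), Proliferative cells 13.3% (14), Cap-Venous cells 11.7% (134), Tip cells 11.0% (46) and Stalk cells 10.1% (85). Venous cells had 10.2%, from 2 cells. Arterial cells had 8.72% (11), Capillary cells 8.51% (42) and Cap-Arterial cells 8.47% (68), and intervals of these 3 overlapped. The ratio of Primitive to Cap-Arterial cells was 2.14 (2.11 to 2.18). Over the 8 clusters with at least 5 cells in both libraries, the shares at the 2 ages had a Pearson r of 0.90 and a Spearman correlation of 0.86, where all points of an age share a library. Within clusters, the ratio of P15 to P6 ran from 0.510 (0.503 to 0.517) in Cap-Arterial to 0.720 (0.711 to 0.730) in Primitive cells. When the clusters of both ages were weighted by their P6 cell numbers, the ratio was 0.600, beside 0.571 in all labelled cells.

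The ribosomal protein share went with division in some clusters and not in others. The S and G2M list was highest in P6 Proliferative cells, at 6034 CPM, where the ribosomal protein share was close to that of Stalk cells, at 1326. P6 Primitive cells, with the highest share, had 2952. Counts per cell gave another order. Median ribosomal protein UMIs at P6 were 1444.5 in Proliferative, 1336 in Primitive and 1034.5 in Stalk cells. Median depths of these clusters were 7954.5, 5148 and 5449.5 UMIs. In the P15 library the medians were 965 in Proliferative and 530 in Primitive cells, at depths of 7570.5 and 2704.5 UMIs. At P15 the 14 Proliferative cells had 5076 CPM of the list, and their ribosomal protein share was 1.22 times that of the other labelled cells (1.196 to 1.237), whereas Primitive cells had 258 CPM of the list and a share 1.71 times the others (1.68 to 1.73). Across passing cells the correlation between the 2 shares was weak (Pearson r 0.02 at P6 and 0.05 at P15). The list summed to 1851 CPM at P6 and 392 at P15.

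The nuclear RNA Malat1 varied in the opposite sense. It had 8741 CPM at P6 and 21398 at P15. Within P6 it ranged from 711 in Primitive cells to 25795 in Arterial cells, and within P15 from 1767 in Primitive cells to 31665 in Cap-Arterial cells. Across passing cells, its share and the ribosomal protein share had a Pearson r of -0.52 at P6 and -0.57 at P15 (n = 1424 and 1644), and as parts of 1 total they are not free to vary separately. Gm26917, a long noncoding transcript, had 12561 CPM at P6 and 8508 at P15, and also was low in P6 Primitive cells (3595). Without both genes in the total, the share was 19.6% at P6 and 11.3% at P15. Cell integrity can move nuclear and mitochondrial RNA. The mitochondrial share was 1.38% and 1.12% at the 2 ages and 1.28% in P6 Primitive cells. It was highest in Capillary cells, at 2.53% and 1.84%, which also had the lowest median depths of all clusters (3204 and 2268.5 UMIs) and low ribosomal protein shares. Across passing cells its Pearson r with the ribosomal protein share was -0.29 at P6 and 0.01 at P15, and the part of RNA quality in these differences was not tested.

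Gene by gene, the cluster pattern was shared by almost all members. Of 79 members with at least 20 UMIs in every P6 cluster, 75 were highest in Primitive and 4 in Cap-Venous cells, and 66 were lowest in Arterial, 12 in Capillary and 1 in Cap-Arterial cells. The same tally over all genes is not given here, so these counts have no background beside them. Against the other labelled P6 cells, 77 of 85 members were higher past 1.2-fold in Primitive cells, beside 19.8% of all 5871 genes, and 4 of 85 in Cap-Venous cells, beside 12.3%. Lower past that fold were 81 of 85 in Arterial cells (33.5% of all genes), 68 in Capillary cells (28.1%) and 42 in Cap-Arterial cells (25.9%). At P15, 78 of 80 members were higher in Primitive cells, beside 29.1% of 1998 genes. The median member was 1.36 times the other cells in P6 Primitive cells, where the median of all genes was 0.820, and 0.663 times in Arterial cells, where it was 1.02.

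**Figure D3:**
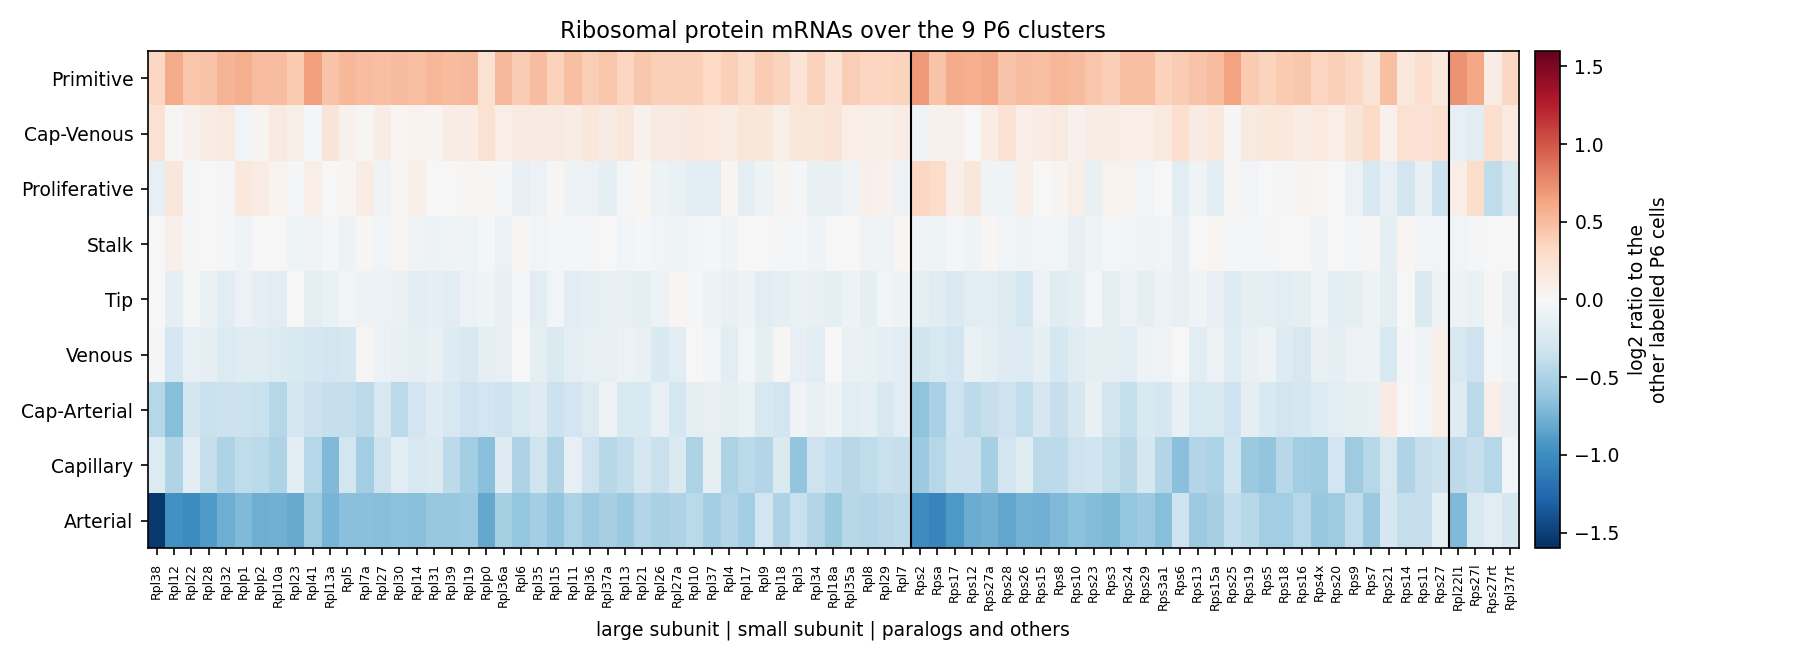
Log2 ratio (colour) of each member's CPM in a P6 cluster (rows, ordered by the summed share) to that in the other labelled P6 cells, for 79 members (columns, grouped by subunit and ordered by their range over clusters). Primitive cells are red and Arterial cells blue for nearly every gene, and Rpl38 has the widest range.

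The span over clusters differed between members. The highest cluster exceeded the lowest 1.97-fold for the median member, from 1.41-fold for Rps27 to 3.52-fold for Rpl38. Rps27 had 4978 CPM in Cap-Venous and 3523 in Capillary cells. Rpl38 had 6817 in Primitive and 1938 in Arterial cells. Rpl38, in which mouse mutations are known to alter the axial skeleton, was the member furthest below the other labelled cells in the Arterial clusters of both libraries (0.34 times at P6 and 0.33 times at P15).

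To separate a member's own pattern from that of the whole family, each gene was expressed as a percentage of the members' UMIs, a comparison added after the data were seen. On this scale the Rpl38 share in Arterial cells was 0.521 times that in other labelled cells at P6 (0.470 to 0.576, 40 cells) and 0.421 times at P15 (0.322 to 0.541, 11 cells). A median Arterial cell gave 1.28% of its ribosomal protein UMIs to Rpl38 at P6 and 1.42% at P15. Cap-Arterial cells gave 2.40% and 2.69%, and the other clusters between 2.64 and 3.18% at P6 and between 3.22 and 3.87% at P15. The quartiles of Arterial cells (1.05 and 1.88% at P6, 1.25 and 1.83% at P15) lay below those of the other clusters except that the lower quartile of P6 Cap-Arterial cells was 1.81%. The 3 look-alikes of Rpl38 were low in Arterial cells too, at 0.498 (0.391 to 0.624) and 0.390 (0.218 to 0.645) times the other cells, but their counts can hold reads of Rpl38 itself and are no independent support.

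Among the 1235 P15 cells that carried no label here, Rpl38 was lower in those with UMIs of the arterial genes Bmx or Gja5, the markers by which they were grouped. It was 3.42% (3.37 to 3.46%) of members' UMIs in 1119 cells with no UMI of either. It was 2.71% (2.55 to 2.87%) in 89 cells with 1 to 2 such UMIs and 2.21% (1.98 to 2.47%) in 27 cells with 3 or more. Median depths of these groups were 4200, 4640 and 4983 UMIs. Among all passing P6 cells the values were 2.97, 2.27 and 1.63% in 1344, 50 and 30 cells. Of the 1424 passing P6 cells, 1399 carry a cluster label, so the P6 values largely repeat the cluster comparison above and are no separate support. Bmx and Gja5 are 2 of the 7 genes of the arterial list, and no grouping by the rest was made. Across cells, the Spearman correlation of the Rpl38 percentage with the whole list of 7 arterial genes was -0.23 in the unlabelled P15 cells and -0.05 in P6 cells. The P6 groups by Bmx and Gja5 thus do not stand for the whole list.

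**Figure D4:**
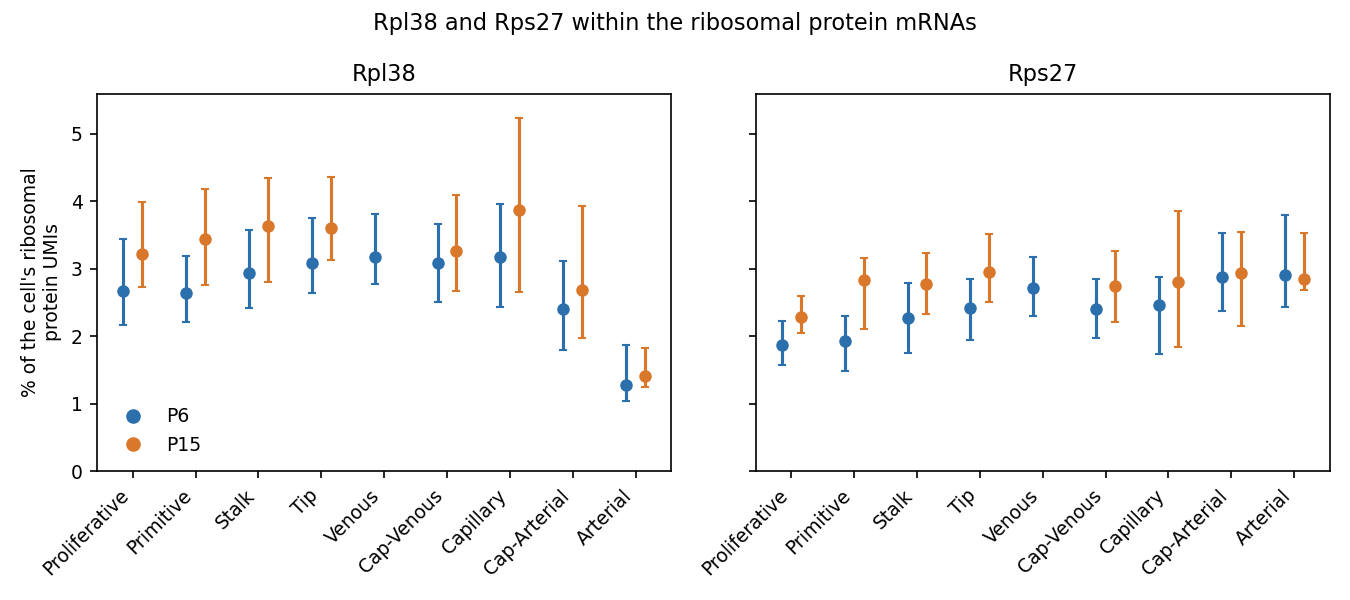
Percentage of a cell's ribosomal protein UMIs that came from Rpl38 (left) and Rps27 (right) in each cluster (x axis), P6 in blue and P15 in orange. Points are medians over cells and bars reach the quartiles, and P15 Venous (2 cells) is not drawn. Rpl38 is lowest in Arterial cells at both ages, with medians of 1.28 and 1.42%, where Rps27 is not.

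Departures past 1.2-fold within 1 library were common: 18 of 85 members at P6 and 36 at P15 in Arterial cells, 6 and 19 in Proliferative, 8 and 19 in Capillary and 8 and 10 in Cap-Arterial cells. Fewer went in the same direction in both libraries with both intervals clear of 1. How many would do so by chance was not tested. They are named here after their values were seen. In Arterial cells Rps27 was 1.37 times the other cells at P6 (1.27 to 1.47) and 1.24 times at P15 (1.04 to 1.46), its retrotransposed copy Rps27rt 1.35 and 1.54 times, and Rpl9 1.22 and 1.36 times. Rpl28 was 0.812 and 0.641 times. In Proliferative cells Rpsa was 1.25 times at P6 (1.201 to 1.297) and 1.58 times at P15 (1.29 to 1.92), and Rps2 1.28 times in both. There Rps14 was 0.833 and 0.743 times, Rps27 0.804 and 0.787 times and Rps27rt 0.774 and 0.654 times. Rpl12 was low in Cap-Arterial cells (0.739 and 0.735 times) and Rplp0 in Capillary cells (0.829 and 0.701 times). Look-alikes of Rpl12 had 0.729 times at P6 (0.622 to 0.849) and 0.786 at P15 (0.509 to 1.17, 27 UMIs), and that of Rplp0 0.945 (0.683 to 1.28) and 0.838 times (0.508 to 1.31). Of the 31-base words of Rps27rt, 92.7% also occur in transcripts of other genes, so its values may hold reads of Rps27 and are not a separate finding. Primitive, Stalk, Tip and Cap-Venous cells had no such member. In Primitive cells 5 of 85 members departed past the fold at P6 and 18 of 85 at P15, where 36 cells were counted, and only Rpl6l did so in the same direction in both, with intervals that include 1. Over 84 or 85 members, values in a cluster relative to other cells were weakly to moderately correlated between the libraries. Pearson r was 0.04 in Tip, 0.07 in Cap-Arterial, 0.15 in Cap-Venous, 0.21 in Primitive, 0.30 in Stalk and 0.44 in Capillary cells. It is not given here for Arterial and Proliferative cells.

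Genes outside the family with the most similar profile over the 9 P6 clusters were sought among 1589 genes with at least 20 UMIs in each. The 10 highest by Pearson r were Rps18-ps3 (0.99), Gm10689 (0.98), Rpl15-ps3 (0.98), Rpl10a-ps1 (0.98), Gm10736 (0.98), Rps13-ps2 (0.98), Rpl27-ps3 (0.98), Gm8430 (0.98), Rpl35a-ps2 (0.97) and Gm7536 (0.97). All 10 were look-alikes of members. Setting look-alikes aside after that was seen, the closest were Eef1b2 (0.97), an elongation factor subunit, Gm7331 (0.97) and Naca (0.97), the nascent chain binding protein at the tunnel exit. Then came Gm5781 (0.97), Gm4366 (0.96), Wdr89 (0.95), Rack1 (0.95), Gtf2h5 (0.95), Tomm7 (0.95) and Gm7618 (0.95). The 9 points share 1 library, and the clusters were built from the same data.

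Translation and ribosome assembly genes outside the family differed between the ages to different degrees. Elongation factors summed to 4368 CPM at P6 and 2984 at P15, a ratio of 0.683 (0.672 to 0.695), and 7 of 7 with enough UMIs were lower past the fold, beside the 21.2% of all genes given above. Eef2, which moves the ribosome along the mRNA, had 1302 and 1068 (ratio 0.82), Eef1g 824 and 554 (0.67) and Eif5a 821 and 567 (0.69). Eef1a1, which delivers tRNAs, was lowest at 0.52 (0.495 to 0.552). TOP mRNAs outside the ribosome, a list that shares genes with the elongation factors, summed to a ratio of 0.668 (0.662 to 0.675), with 17 of 18 lower, beside 21.2% of all genes. They ranged from 0.44 for Nap1l1 to 1.06 for Eif3f, and among the most abundant was Tpt1 at 1320 and 966 (0.73).

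Ribosome biogenesis factors summed to 3654 and 2482 CPM, a ratio of 0.679 (0.667 to 0.692), and 26 of 35 were lower and 1 higher past the fold, beside 21.2% and 37.7% of all genes. Npm1 had 792 and 350 (ratio 0.44, 0.422 to 0.463), Ncl 411 and 298 (0.73) and Nop10 339 and 241 (0.71), all proteins of the nucleolus or its RNPs. Rrp1 was highest at 1.31. Genes of RNA polymerase I and 5S transcription were mixed, with 8 of 15 lower and 2 higher (21.2% and 37.7% of all genes) and a summed ratio of 0.908 (0.882 to 0.934). Polr1d had 231 and 185 (0.80), Polr2l 180 and 185 (1.03) and Polr2e 156 and 195 (1.25), and the range ran from Polr2h (0.59) to Ubtf (1.29), the factor that opens rDNA for transcription.

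Initiation factors summed to 9739 CPM at P6 and 8906 at P15, a ratio of 0.915 (0.905 to 0.924), with 10 of 32 lower and 2 higher, beside 21.2% lower and 37.7% higher among all genes. Eif1 had 1341 CPM at P6 and 1666 at P15 (1.24), Eif4a1 1152 and 982 (0.85) and Eif3f 714 and 757 (1.06), with a range from Eif2s3x (0.57) to Eif4a2 (1.49). Genes of mTOR signalling and TOP regulation summed to a ratio of 1.08 (1.06 to 1.11), with 2 of 14 lower and 3 higher, beside 21.2% and 37.7% of all genes. Cnbp had 419 and 474 (1.13), Rheb 198 and 260 (1.31) and Lamtor2 166 and 163 (0.98), with a range from Larp4 (0.54) to Lamtor3 (1.42). In the Myc family, Myc had 32.6 and 11.1 CPM (ratio 0.34, 0.263 to 0.440), while Mycn had 21.3 and 61.5 (2.88, 2.41 to 3.47), Max 85.9 and 160 (1.86) and Mxd4 70.3 and 130 (1.85). Of 5 tested genes, 1 was lower and 4 higher, beside 21.2% and 37.7% of all genes.

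**Figure D5:**
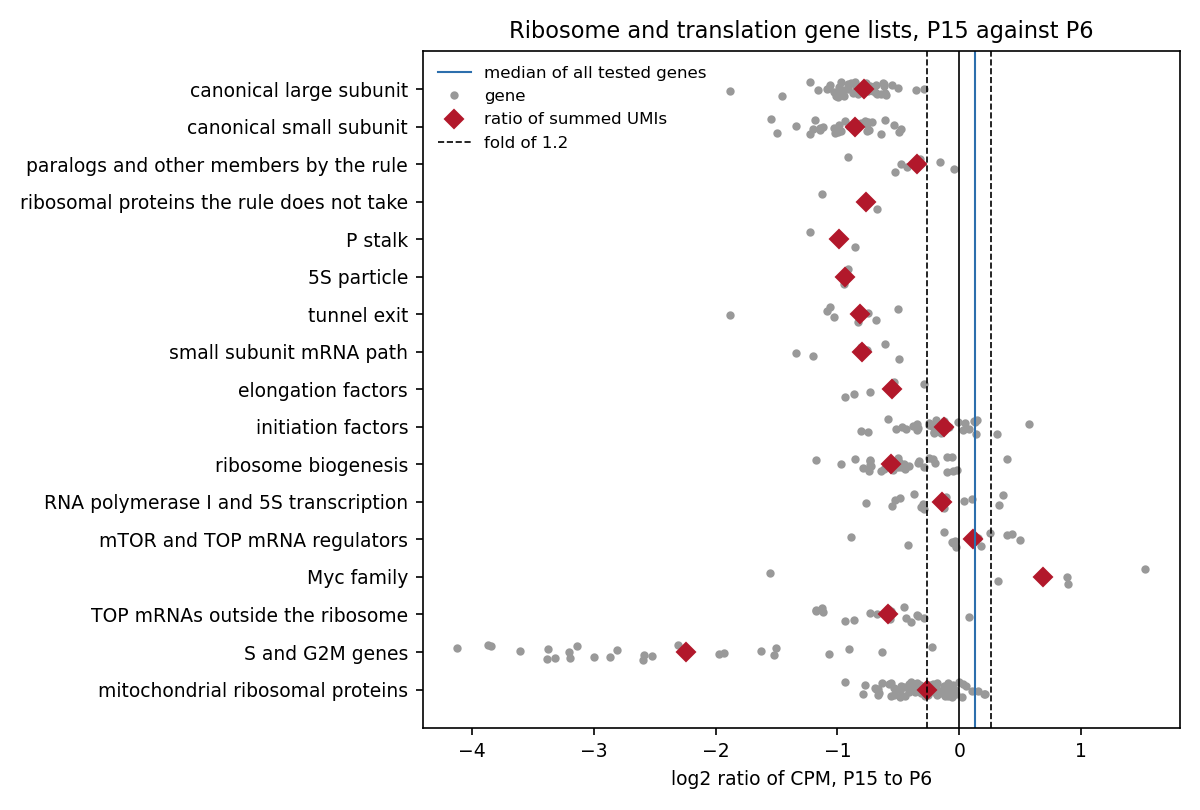
Log2 ratio of CPM at P15 to P6 (x axis) for genes of each list (grey points, at least 200 UMIs) and for the summed list (red diamonds). Dashed lines mark 1.2-fold and the blue line the median of all genes (0.13). The cytosolic ribosomal protein lists sit left of the dashed line, and mitochondrial ribosomal proteins close to it.

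Mitochondrial ribosomal proteins, which serve the separate ribosome of that organelle, differed less between the ages than the cytosolic ones. They summed to 6243 CPM at P6 and 5208 at P15, a ratio of 0.834 (0.823 to 0.846), with 34 of 74 lower and 0 higher past the fold (21.2% and 37.7% of all genes) and a median of 0.848, where that of all genes was 1.09. Mrpl52 had 238 and 147 (0.62), Mrpl17 215 and 136 (0.63) and Mrps21 210 and 177 (0.84), and the range ran from Mrps6 (0.52) to the pseudogene Mrpl23-ps1 (1.16). S and G2M genes had the lowest values, with a summed ratio of 0.212 (0.203 to 0.220) and 25 of 26 lower, beside 21.2% of all genes. Cdk1 had 146 and 24.1 (0.17), Ube2c 139 and 9.50 (0.07) and Top2a 134 and 9.36 (0.07), with a range from Rrm2 (0.06) to Slbp (0.86).

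Over the 9 P6 clusters these lists followed the family to different degrees, as a description over points of 1 library. Pearson r with the summed members was 0.96 for elongation factors, 0.95 for other TOP mRNAs, 0.84 for initiation factors, 0.83 for mitochondrial ribosomal proteins, 0.75 for biogenesis factors, 0.26 for S and G2M genes and -0.65 for the Myc family. Biogenesis factors were high in both Primitive (5217 CPM) and Proliferative cells (4836), whereas elongation factors had 5570 and 4597.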

How the data were processed

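The UMI counts per gene and cell barcode were used as the authors deposited them. The counting tool and annotation are not given in the sources used here, and the submitters' processing notes name mm10 and Seurat 3.0. Ensembl IDs were matched to GENCODE M21 symbols (22695 of 22734 in the P6 table and 21745 of 21785 in the P15 table). Cells were kept if they had 200 to 3500 genes, a mitochondrial share of 5% or less, and Hbb-bt, Neurod1 and Cd63 all at 0. No doublet caller was run, and the upper limit on genes removes cells of very high content. Of 1560 labelled P6 cells, 1399 met these criteria, and cluster values used all labelled cells, with Primordial-Proliferative written as Proliferative and Primordial as Primitive. Levels are given as CPM, the UMIs of a gene relative to all UMIs in the cells. Ratios have conditional binomial intervals, shares Clopper-Pearson intervals and levels Poisson intervals, all of them 95% and for counting error only. Calls are folds over 1.2 in genes with at least 200 UMIs over both libraries.

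Genes named were the 5 most abundant members, the 5 highest and 5 lowest ratios among members with at least 200 UMIs, the P stalk, Rpsa, the 5S particle, the paralogs, the range of each list, the 3 most abundant genes of each other list and the 10 most similar genes. Members and lists were chosen with earlier results of these data known. Look-alikes, the make-up within the family and similar genes without look-alikes were added after seeing the data. Alternatives changed the cells, the denominator, the numerator, depth, cluster weights, fold and count minimum. Promoters are from RefSeq (GRCm38.p6). Python 3.11.15, numpy 2.4.6, scipy 1.17.1, pandas 2.3.3 and matplotlib 3.10.9 were used, and the calculations were tested on simulated data. The large to small ratio with ribosomal proteins that the naming rule does not take is not reported here.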

Additional observations from a re-analysis of the deposited data

How the results depend on the processing

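The share at P6, the share at P15 and their ratio were 19.1%, 11.0% and 0.576 with every barcode, 19.4%, 11.1% and 0.571 in labelled cells, 19.4%, 11.1% and 0.571 without mitochondrial genes in the total, and 20.3%, 11.8% and 0.581 with pseudogene symbols. They were 18.5%, 10.7% and 0.576 as a mean over cells, 19.1%, 10.9% and 0.569 when 1245 of 1424 P6 and 1163 of 1644 P15 cells were thinned to 3000 UMIs, and 18.7%, 10.6% and 0.565 in cells of 3000 to 6000 UMIs. Thinning keeps each cell's expected share. Thinned shares, here and below, could thus move only through sampling, the cells left out and equal weight per cell. Of the alternatives chosen after seeing the data, look-alikes gave 22.7%, 13.5% and 0.596, cells without UMIs of the pericyte, neural, red blood cell and leukocyte lists 19.3%, 11.0% and 0.566, and a total without Malat1 and Gm26917 19.6%, 11.3% and 0.577. Reweighting gave a ratio of 0.600, and leaving out the shared barcodes moved none of the 3 values past its interval. The direction was lower at P15 in each of these. Members lower past the fold were 70 of 85 with a fold of 1.5 (9.68% of all genes), 85 of 87 with every barcode (24.9%) and 85 of 88 with at least 50 UMIs (23.4%), where more members were tested, and between 81 and 84 in the other settings. None was higher in any setting. The range over P6 clusters was 2.03 as a mean over cells, 1.96 when thinned and 1.96 in labelled cells meeting the criteria, with Primitive highest and Arterial lowest in each. The large to small ratio at P6 and P15 was 1.26 and 1.31 with every barcode, 1.25 and 1.32 in labelled cells, and 1.25 and 1.31 when thinned. No paired analysis was possible because each age was 1 library. The cause of these shifts was not tested. With 1 library per age, counting intervals leave out differences between animals and preparations, P15 clusters of 2 to 14 cells give rough values, and single members with many look-alikes depend on how reads were assigned.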
